A study of Saccharomyces cerevisiae with 26 samples.

Results

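The ribosome biogenesis genes described here are 44 genes of budding yeast (Saccharomyces cerevisiae) whose products build ribosomes but are not ribosomal proteins. They were chosen by name from the RefSeq annotation of assembly R64, and all 44 were found among the 6002 protein-coding genes placed on the data. Their values come from 8 strand-specific RNA-seq libraries and 8 libraries of chromatin immunoprecipitation and sequencing (ChIP-seq). The ChIP target was Rpb3, which is part of the RNA polymerase II core. Each assay had 4 groups of 2 libraries: the WT strain and the strain labelled fkh1Δfkh2Δ2C, each growing asynchronously or arrested in G1 with the mating pheromone α-factor for 4 hours, in the rich medium YEPD at room temperature. The labels mark a deletion at FKH1 and a change at FKH2, the genes of a pair of Forkhead transcription factors. They do not say what 2C stands for, and the WT strain's own genotype is not described further in the sources used here. The comparisons ask whether transcription differs between these strains, in growing and in arrested cells.

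Ribosome assembly starts in the nucleolus, where RNA polymerase I makes a long precursor RNA. Small nucleolar ribonucleoproteins (snoRNPs) modify this precursor, a large particle called the small-subunit processome cuts and folds its 5′ part, and a separate set of factors assembles the large subunit. In yeast the genes for these factors are known to be transcribed together and to respond to nutrients, growth rate and stress. By role, 3 members belong to box C/D snoRNPs, which methylate the RNA, 2 to box H/ACA snoRNPs, which make pseudouridine, and 1, NSR1, encodes a nucleolin-like protein. A further 6 encode the UtpA (t-Utp) complex, 4 the UtpB complex and 9 other parts of the small-subunit processome. RRP5 works on both subunits, and 18 members act in assembly of the large subunit.

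The members lie on 13 chromosomes, with 23 on the Watson and 21 on the Crick strand. In all 44 most RNA lay on the annotated strand. Every value is a mean over the gene's 50 bp bins of the authors' normalized signal, a scale on which genes of different length can be compared. Among the RNA columns, 2 asynchronous Crick-strand ones bear the same name, so neither was used. Crick-strand genes therefore have 1 asynchronous library per strain, replicate 2, while Watson-strand genes have both. In the RNA tests the spread of a Crick-strand gene's own values thus came from the G1 libraries only. Its lone asynchronous library was assumed to vary like them. No label says that replicates came from separate cultures, so p-values measure the spread between these libraries, which may be technical, and the sequencing depth is unknown.

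The labels were checked first. Over FKH1, Rpb3 signal was 27.7 to 40.96 in the 4 WT libraries and 1.32 to 7.26 in the 4 mutant libraries, and RNA of this gene was listed at 0 in all 3 mutant libraries with Crick-strand values. When genes were cut into 3 equal parts, the last part of FKH2 had an Rpb3 signal of 26.8 to 38.3 in WT libraries and of 11.4 to 17.3 in mutant libraries, while its first part was at 37.8 to 50.5 in the mutant, so the lower signal over FKH2 lay in its last part. Sense RNA averaged over the whole of FKH2 was not reduced, at 0.159 to 0.628 in the 3 WT libraries with values and 0.579 to 1.34 in the 3 mutant ones. Between the strains, 0 of these 2 genes passed the limma test in RNA. The lower of their log2 differences was -3.40 in asynchronous cells and -1.83 in G1. In Rpb3 only 1 of the 2 was tested, and 0 passed. A gene that did not pass between the strains can therefore still differ. Of 6 genes known to be induced by α-factor, 6 passed the test as higher in arrested WT cells in both assays and 5 in the mutant, among them FIG2 and AGA1 for Rpb3. Of 8 histone genes, which are transcribed in S phase, all 8 had log2 changes below 0 with arrest in both assays and both strains. As lower in arrested cells, 4 in RNA and 7 in Rpb3 passed the test in WT, and 2 and 5 in the mutant.

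Among the libraries, 2 stood apart at the members. The Rpb3 library of asynchronous WT cells, replicate 1, gave the lowest value of 8 at all 44 members, and at 27.8% of all genes tested. Its Spearman correlation with the other Rpb3 libraries across genes was 0.296 to 0.537, against 0.703 to 0.962 among the others. Its median over members was 25.4, while its median over all genes was 40.5. Cytoplasmic ribosomal protein genes were also low in it, with a median of 26.2 against 109 to 181 in the other 7 libraries. In RNA, replicate 2 of G1 WT was below every other library with both strands at 42 members, and at 27.3% of all genes. Its members were at 0.474 times the level of replicate 1 in the median, where all genes were at 0.943 times. Medians of log2 differences that rest on these 2 libraries are given with and without them. Without replicate 2 of G1 WT, 2 of the 6 α-factor genes passed the test in RNA in each strain, and 1 of the 8 histone genes in WT.

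**Figure D1:**
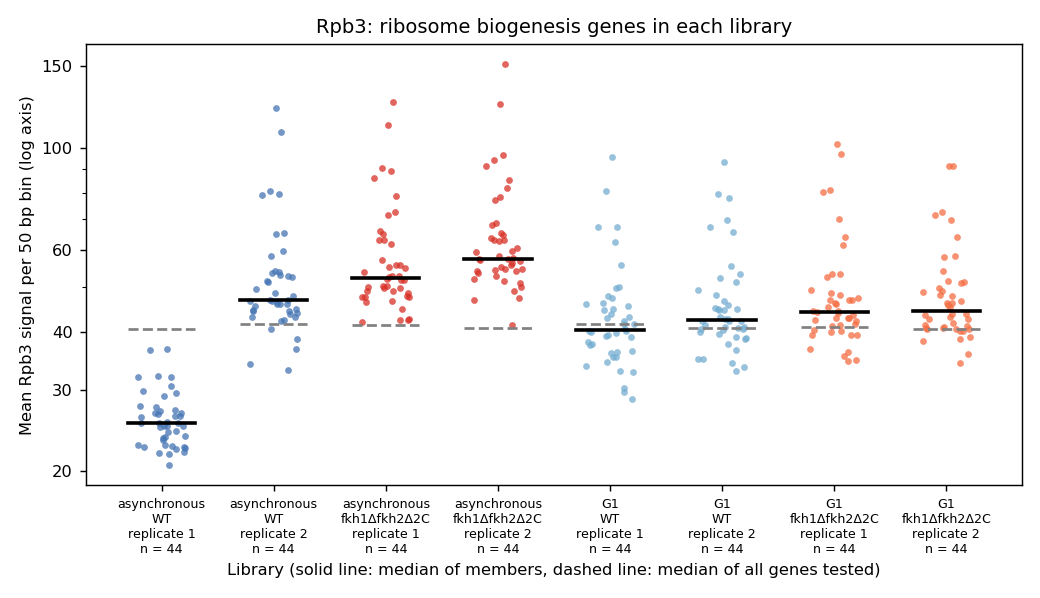
Rpb3 ChIP-seq signal at the 44 ribosome biogenesis genes (mean per 50 bp bin, log axis) in each of 8 libraries; points are genes, solid lines the members' median and dashed lines the median of all genes tested. The members' median was 25.4 in replicate 1 of asynchronous WT and 40.4 to 57.6 in the other 7 libraries, with the highest medians in the asynchronous mutant.

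The members spanned a wider range of RNA than of Rpb3. Averaged over the 4 groups, RNA signal differed 69.0-fold between the highest and the lowest member and Rpb3 signal 2.84-fold. The ranges of all genes are not given here. Rpb3 signal remained at genes with little RNA: FIG2, FUS1 and PRM1 had RNA of 0.08 to 0.527 in asynchronous cells and Rpb3 of 24.2 to 38.0. Ratios of Rpb3 signal, here and below, include such a floor, and the lowest member lay within that range. In RNA, 36 of 44 members were above the median of all genes tested and the median member was at percentile 72.2. In Rpb3, 32 of 44 were above it and the median member was at percentile 57.2. These averages include the 2 libraries that stood apart, in which the members were low, and levels without them are not given. CBF5, the pseudouridine synthase of box H/ACA snoRNPs, had the highest RNA (15.7 on average), followed by its partner GAR1 (11.1) and NSR1 (10.1), then by NOP7 (6.93), a large-subunit assembly factor. For Rpb3, NOP1, the methyltransferase of box C/D snoRNPs, was first (96.3), followed by NSR1 (92.7), CBF5 (76.4) and NOP15 (72.4), a large-subunit factor with an RNA-binding domain. The lowest RNA was that of UTP6 (0.228), a UtpB subunit, with NOP12 (0.245) next, and the lowest Rpb3 that of NOP14 (33.9), a small-subunit processome protein. Within replicate 2 of asynchronous WT, RNA and Rpb3 had a Spearman correlation of 0.515 across the 44 members and 0.594 across 5159 genes, a description of 1 library per assay in which genes are not replicates. Over all groups and replicates it ran from 0.222 to 0.628 across members and from 0.206 to 0.594 across genes. Both ends of the range for members came from replicate 1 of asynchronous cells, with 23 members.

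**Figure D2:**
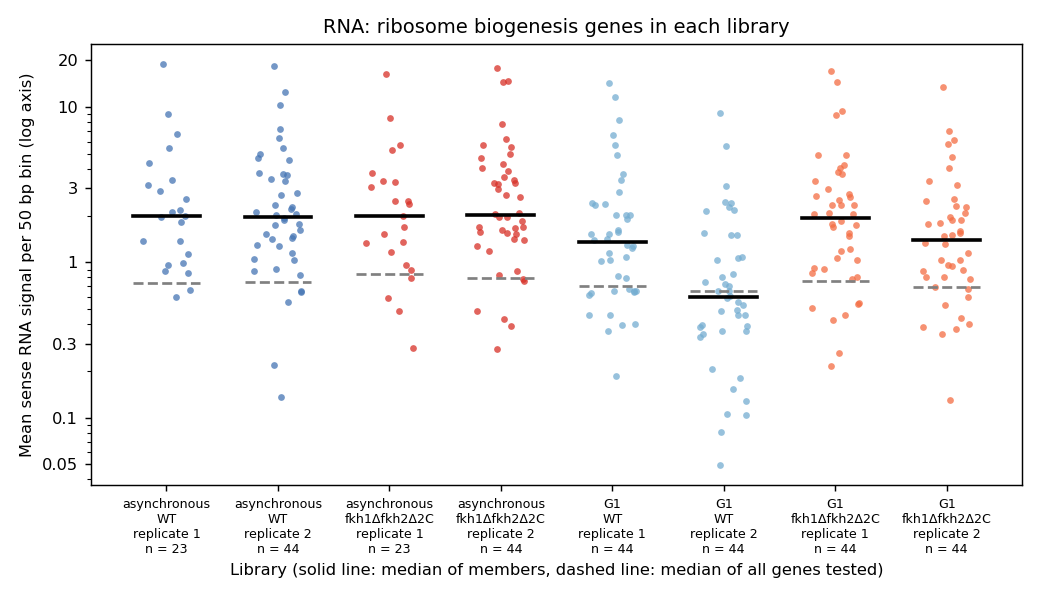
Sense-strand RNA signal at the ribosome biogenesis genes (mean per 50 bp bin, log axis) in each of 8 libraries; points are genes, solid lines the members' median and dashed lines the median of all genes tested, and the 2 libraries with n = 23 hold Watson-strand genes only. The members' median was 0.603 in replicate 2 of G1 WT and 1.35 to 2.01 in the other 7.

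In asynchronous cells no member's Rpb3 signal passed the test between the strains, although all log2 differences lay above 0. NSR1 gave 21.7 and 108 in the WT libraries, against 126 and 152 in the mutant ones. NOP1 gave 29.0 and 122 in WT, against 112 and 125. MAK16, a large-subunit factor on chromosome I, gave 23.7 and 45.9 in WT, against 52.5 and 55.4. The 2 WT libraries differed more from each other than the second WT library did from the mutant at each of these 3 genes. The log2 difference, on the scale of log2(signal + 3.93), was 1.41 for NSR1 (adjusted p = 0.22, limma with Benjamini-Hochberg adjustment), 0.92 for NOP1 (adjusted p = 0.30) and 0.64 for MAK16 (adjusted p = 0.21).

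Over the 44 members the asynchronous Rpb3 differences ranged from 0.33 to 1.41, all above 0, with a median of 0.63 against -0.04 over all 5401 genes tested. At an adjusted p under 0.05, limma called 0 members and 0% of all genes, and 27 members had an unadjusted p under 0.05, as did 23.6% of all genes. Without replicate 1 of asynchronous WT, the median over members was 0.22, 43 of 44 were above 0, 0 were called (0.37% of all genes), and 17 had an unadjusted p under 0.05, as did 20.7% of all genes. Against replicate 2 alone, the mutant mean was 1.18 times as high in the median member, from 0.97 times for NOP1 to 1.34 times for RPF1, a large-subunit factor. Both mutant libraries were above both WT libraries at 40 members, where 24.5% of all genes showed this, and above replicate 2 alone at 40 (33.9% of all genes). The size of the difference thus differed with replicate 1 in or out, and its direction was the same in 43 members.

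At the other representatives listed here, replicate 1 of asynchronous WT was the lowest in Rpb3. Both asynchronous mutant libraries were above all others, with 1 exception, UTP22. NOP56 gave 22.7 and 65.3 in asynchronous WT, 78.6 and 85.4 in the asynchronous mutant, 55.7 and 65.8 in G1 WT and 64.1 and 64.01 in the G1 mutant. UTP10, the largest UtpA subunit, gave in that order 29.5 and 52.7, 55.7 and 59.7, 42.2 and 51.3, and 46.8 and 51.0. UTP20 gave 26.3 and 46.9, 49.8 and 56.3, 29.6 and 38.9, and 36.2 and 40.2. At these 3 genes the asynchronous mutant libraries were the highest and replicate 1 of asynchronous WT the lowest. RRP5 gave 20.6 and 42.3, 48.9 and 54.8, 36.1 and 42.2, and 40.2 and 41.8. IMP4 gave 24.4 and 44.3, 51.8 and 57.7, 40.6 and 44.8, and 42.9 and 46.6. NOP2 gave 22.5 and 49.4, 49.95 and 57.1, 37.6 and 41.3, and 44.1 and 42.6. The lowest and highest libraries were again the same at these 3. Among large-subunit factors, DBP3 gave 24.9 and 53.5, 63.1 and 68.7, 47.9 and 52.3, and 53.3 and 58.0, and ERB1 24.3 and 45.9, 46.7 and 51.5, 35.3 and 37.7, and 41.3 and 43.6. NOP7 gave 23.3 and 48.6, 52.0 and 63.0, 36.0 and 40.4, and 46.1 and 46.1. UTP22 was an exception among the representatives, at 26.4 and 52.4, 51.7 and 54.2, 45.5 and 53.2, and 46.8 and 51.2. Its replicate 2 libraries of WT, asynchronous and G1, reached into the range of the asynchronous mutant ones.

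In G1 the Rpb3 difference between the strains was small. NSR1 gave 67.5 and 77.9 in WT against 97.1 and 91.4 for the mutant, so its groups did not overlap. NOP1 gave 95.6 and 93.1 against 102 and 91.4, and CBF5 80.8 and 79.5 against 80.9 and 72.5, so their groups overlapped. The median log2 difference over members was 0.10 against -0.01 over all genes, with 40 of 44 above 0 and a range of -0.06 to 0.36. Without replicate 1 of G1 WT it was 0.06, with 31 of 44 above 0. The limma test called 0 members and 0% of all genes, and 0 members had an unadjusted p under 0.05, against 3.81% of all genes. The mutant libraries were both above the WT libraries at 24 members, where 20.5% of all genes showed this, and both below at 1, where 21.3% did.

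In growing cells no member's sense RNA passed the test between the strains. NOP2, the methyltransferase that acts in large-subunit assembly, gave 4.36 and 4.99 in WT against 3.77 and 5.72, and NOP56, a box C/D core protein, 6.67 and 4.59 against 5.73 and 5.57. In both genes the groups overlapped. For Crick-strand genes the single libraries gave 12.6 (WT) and 14.8 (mutant) for NSR1, and 2.71 and 3.56 for MAK16. The median log2 difference over members, on the scale of log2(signal + 0.0617), was 0.08 against 0.07 over all genes, with 27 of 44 above 0, and turned to -0.03, with 19 of 44 above 0, when libraries were centred on the median of all genes. The limma test called 0 members and 0% of all genes, and 0 members had an unadjusted p under 0.05, against 3.89% of all genes. Among the 23 Watson-strand members, 1 was higher and 7 were lower in the mutant with no overlap, where 24.9% and 14.2% of all Watson-strand genes were. The 21 Crick-strand members had 1 library per strain, so groups could not overlap. Of these, 15 were higher and 6 lower in the mutant, where 54% and 45.6% of all Crick-strand genes were.

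In G1 no member's RNA passed the test between the strains, and the size of the median difference depended on replicate 2 of G1 WT. NSR1 gave 8.21 and 2.43 in WT, against 9.44 and 6.16. MAK16 gave 2.03 and 0.594, against 2.53 and 1.97. NOP2 gave 2.35 and 2.14, against 4.94 and 3.34. At NSR1 and MAK16 the first WT library lay between the mutant libraries, and only at NOP2 of these 3 were both mutant libraries above both WT libraries. The log2 difference was 0.76 for NSR1 (adjusted p = 0.74), 0.97 for MAK16 (adjusted p = 0.70) and 0.84 for NOP2 (adjusted p = 0.53), by limma.

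The median over members in G1 RNA was 0.67 against 0.09 over all genes, with 41 of 44 above 0. At the threshold 0 members were called by limma, against 0.0555% of all genes, and 5 members had an unadjusted p under 0.05, against 7.85% of all genes. Without replicate 2 of G1 WT the median over members was 0.11, against 0.06 over all genes, and 32 of 44 were above 0. Without replicate 1 instead it was 1.10. Both mutant libraries were above both WT libraries at 9 of 23 Watson-strand members (23.2% of all Watson-strand genes) and at 6 of 21 Crick-strand members (22.4% of all Crick-strand genes).

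**Figure D3:**
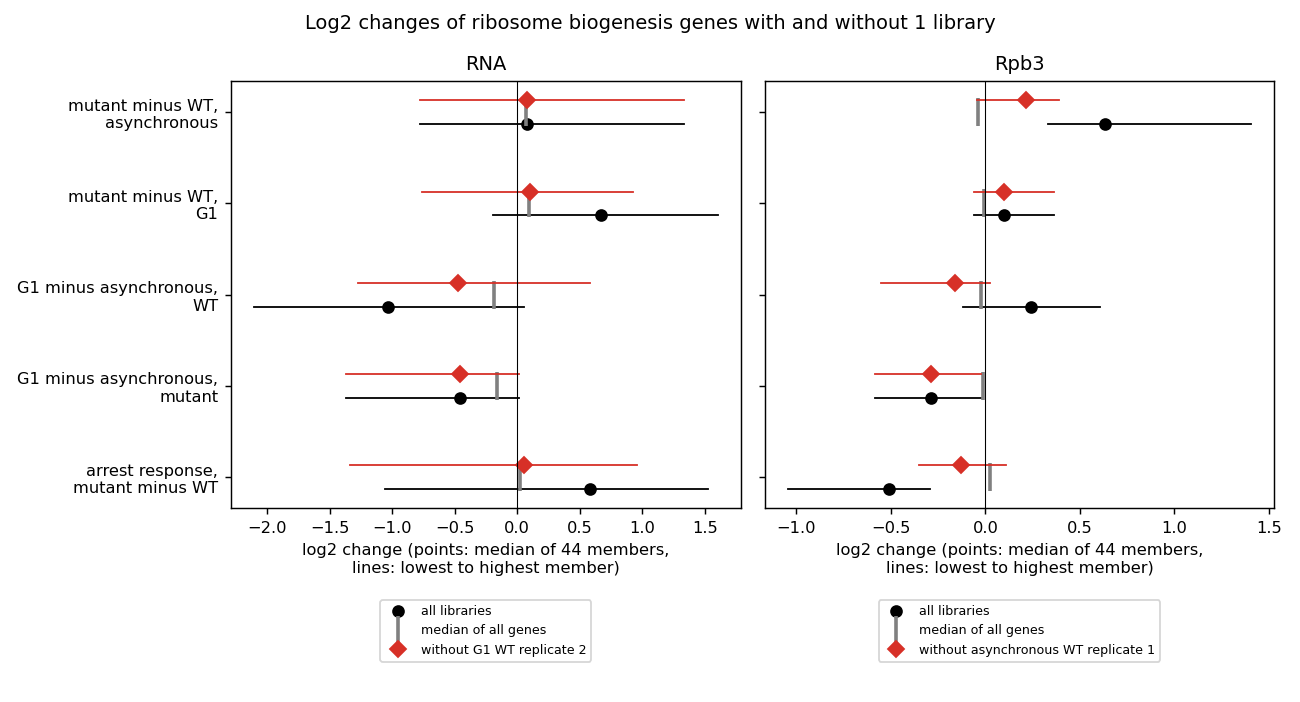
Log2 differences over the 44 ribosome biogenesis genes in 5 comparisons, for RNA and for Rpb3; points are medians of members, lines run from the lowest to the highest member, black uses all libraries, red leaves out 1 library, and grey bars are the median of all genes tested. The Rpb3 median for G1 minus asynchronous WT was 0.24 with all libraries and -0.16 without replicate 1 of asynchronous WT, and the mutant's -0.29 was the same either way.

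From asynchronous growth to G1 arrest in WT, log2 changes of RNA lay below 0 at 43 of 44 members, but no member passed the test. NSR1 gave 12.6 in asynchronous WT (1 library) and 8.21 and 2.43 in G1. CBF5 gave 19.0 and 18.5 against 14.2 and 9.19. UTP20, a large scaffold protein of the small-subunit processome, gave 1.38 and 1.15 against 1.08 and 0.491. In all 3 genes every G1 library was below every asynchronous one.

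Their log2 changes were -1.48 for NSR1 (adjusted p = 0.31), -0.71 for CBF5 (adjusted p = 0.19) and -0.73 for UTP20 (adjusted p = 0.34), by limma. NOP2 gave 4.36 and 4.99 in asynchronous cells and 2.35 and 2.14 in G1, a log2 change of -1.04 (adjusted p = 0.13, limma). MAK16 gave 2.71 against 2.03 and 0.594, a log2 change of -1.24 (adjusted p = 0.37, limma). The member nearest to the threshold, named after its values were seen, was MAK5, a putative RNA helicase of large-subunit assembly. MAK5 gave 1.37 and 1.06 in asynchronous cells and 0.461 and 0.384 in G1, a log2 change of -1.39 (adjusted p = 0.052, limma).

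The median log2 change over the members in the WT arrest was -1.03 against -0.19 over all genes. UTP6 was the 1 member above 0, at 0.135 in asynchronous cells and 0.187 and 0.106 in G1. By limma 0 members were called, against 1.91% of all genes, and 18 had an unadjusted p under 0.05, all lower, against 18.4% of all genes. Both G1 libraries were below both asynchronous ones at 18 of 23 Watson-strand members, where 36.3% of all Watson-strand genes were. They were below the single asynchronous library at 18 of 21 Crick-strand members, where 45.6% of all Crick-strand genes were. Without replicate 2 of G1 WT, 40 of 44 were below 0 and the median was -0.47, against -0.13 over all genes, with 7 members at an unadjusted p under 0.05 (12.8% of all genes).

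By role, the WT medians were -0.70 for the box C/D proteins, -0.53 for the box H/ACA proteins, -1.01 for UtpA, -1.20 for UtpB, -0.91 for the other small-subunit processome proteins and -1.13 for the large-subunit factors. They were, in that order and without replicate 2 of G1 WT, -0.15, -0.12, -0.61, -0.70, -0.46 and -0.51. With all libraries, the 9 large-subunit factors with an unadjusted p under 0.05 were all lower. DBP3, an RNA helicase, gave 2.01 in asynchronous WT and 1.04 and 0.808 in G1. ERB1, which with NOP7 and YTM1 forms a complex needed for the large subunit, gave 1.93 against 0.823 and 0.611, and NOP7 gave 9.06 and 6.34 against 6.59 and 2.45, so that only NOP7 overlapped. RPF2, which brings the 5S RNA particle to the large subunit, gave 2.12 against 1.52 and 0.393. UTP22, a processome protein on chromosome VII, gave 2.00 and 2.04 against 2.01 and 1.08, and its groups overlapped.

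In the mutant, too, no member's RNA passed the test for arrest, and 43 of 44 log2 changes lay below 0. NSR1 gave 14.8 in the asynchronous mutant and 9.44 and 6.16 in G1. CBF5 gave 16.3 and 18.0 against 17.1 and 13.5, so its groups overlapped, and IMP4, a processome protein that binds the U3 snoRNA, gave 1.70 and 1.52 against 1.22 and 0.436, with no overlap. The median log2 change was -0.45 against -0.16 over all genes. Without replicate 2 of the G1 mutant it was -0.23, with 34 of 44 below 0 and -0.06 over all genes. Without replicate 2 of the asynchronous mutant, which leaves the 23 Watson-strand members, it was -0.21, with 20 of 23 below 0. After centring on the median of all genes it was -0.30, with 34 of 44 below 0. By limma 0 were called, against 0.63% of all genes, and 0 members had an unadjusted p under 0.05, against 9.24% of all genes. Both G1 libraries were below both asynchronous ones at 11 of 23 Watson-strand members (31% of all Watson-strand genes), and below the single one at 17 of 21 Crick-strand members (43.7% of all Crick-strand genes).

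Among the other representatives, NOP1 RNA was 5.49 and 7.28 in asynchronous WT, 5.28 and 4.32 in the asynchronous mutant, 5.71 and 3.11 in G1 WT and 3.82 and 4.07 in the G1 mutant, so that its G1 and asynchronous values overlapped in WT and did not in the mutant. The Crick-strand genes have 1 asynchronous library per strain. GAR1 gave 10.3 in asynchronous WT, 14.5 in the asynchronous mutant, 11.6 and 5.64 in G1 WT and 14.5 and 7.03 in the G1 mutant. UTP10 gave in that order 2.28, 3.23, 1.90 and 1.06, and 2.66 and 1.87, and RRP5 gave 3.34, 3.85, 2.86 and 1.497, and 3.69 and 2.56. At UTP10 and RRP5 all G1 libraries of a strain were below its asynchronous library, and at GAR1 the groups overlapped in WT.

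From asynchronous growth to arrest in the mutant, log2 changes of Rpb3 lay below 0 at all 44 members, and no member passed the test with all libraries. GAR1 gave 71.5 and 78.3 in the asynchronous mutant and 45.8 and 51.5 in G1. NSR1 gave 126 and 152 against 97.1 and 91.4. RPF2 gave 53.9 and 59.4 against 39.4 and 41.5, and NOP1 112 and 125 against 102 and 91.4. At all 4 genes both G1 libraries were below both asynchronous ones.

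The log2 changes were -0.58 for GAR1 (adjusted p = 0.53), -0.53 for NSR1 (adjusted p = 0.73), -0.45 for RPF2 (adjusted p = 0.33) and -0.28 for NOP1 (adjusted p = 0.84), by limma. Over the 44 members they ran from -0.58 to -0.02, with a median of -0.29 against -0.01 over all genes. At the threshold limma called 0 members, against 2.3% of all genes, and 2 had an unadjusted p under 0.05, against 13.8% of all genes. Both G1 libraries were below both asynchronous ones at 43 members, where 35.6% of all genes were. The G1 mean was 0.805 times the asynchronous mean in the median member.

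The spread in this test is shared by all 8 Rpb3 libraries, including replicate 1 of asynchronous WT. Without that library the mutant's values were the same and the limma test called 23 members, all lower, against 19.7% of all genes, of which 10.1% of all genes tested were lower. The adjusted p was then 0.0040 for GAR1, 0.021 for NSR1 and 0.0061 for RPF2 by limma. NOP1 was not among the 23. The 23 held 2 of 3 box C/D proteins, 1 of 2 box H/ACA proteins, NSR1, RRP5, 3 of 6 UtpA and 1 of 4 UtpB subunits, 4 of 9 other processome proteins and 10 of 18 large-subunit factors.

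**Figure D4:**
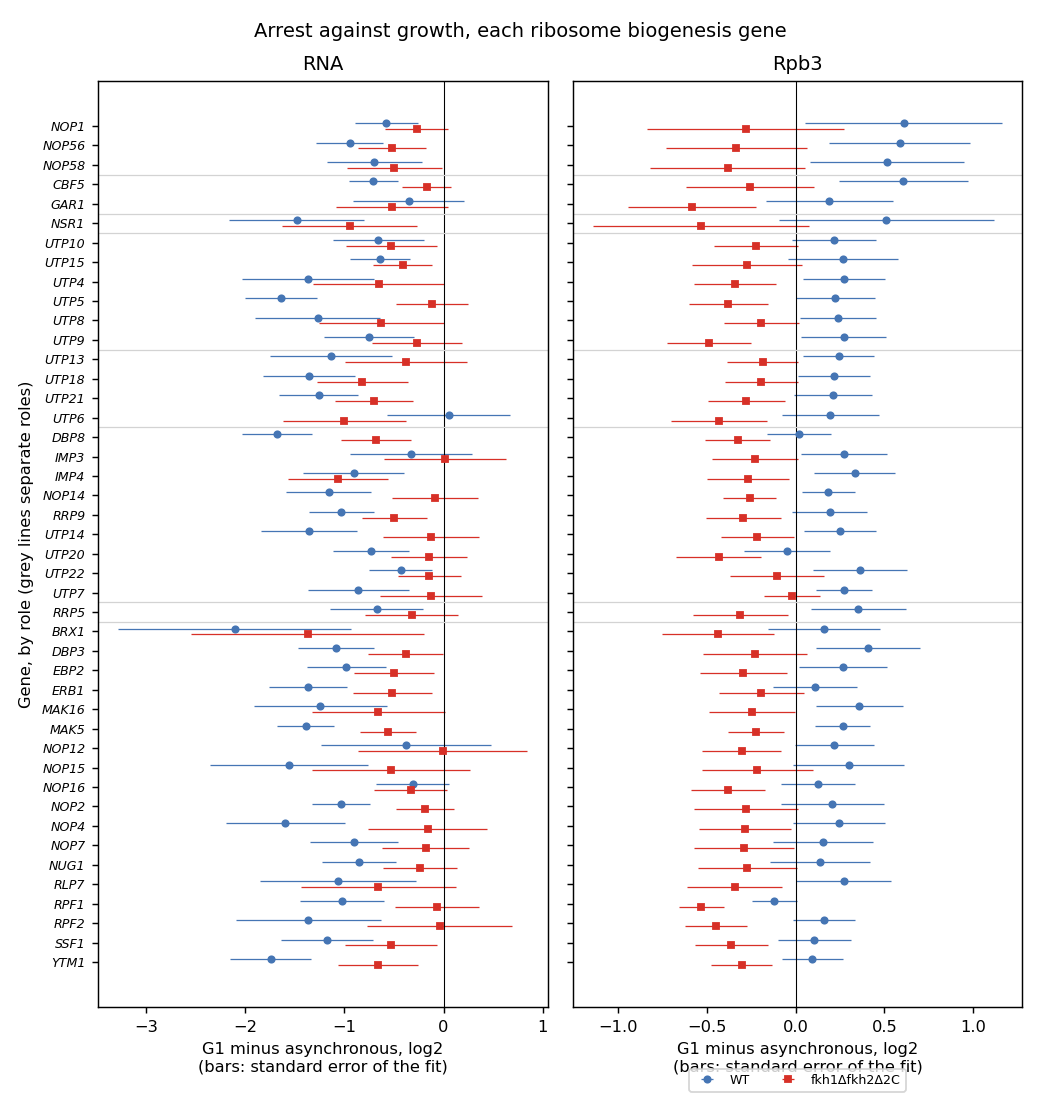
Log2 change from asynchronous growth to G1 arrest of each ribosome biogenesis gene, in WT (blue) and in the mutant (red), for RNA and Rpb3; bars are standard errors of the fit and grey lines separate roles. RNA changes were below 0 at 43 of 44 genes in each strain, and Rpb3 changes were below 0 at 44 of 44 in the mutant and above 0 at 42 of 44 in WT, a direction that turned when replicate 1 of asynchronous WT was left out.

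In WT the direction of the Rpb3 change with arrest depended on that same library. GAR1 gave 25.0 and 65.1 in asynchronous WT and 47.4 and 46.7 in G1, and NSR1 gave 21.7 and 108 against 67.5 and 77.9. At both genes the G1 libraries lay between the 2 asynchronous ones. The asynchronous and G1 libraries overlapped at all 44 members, while 15.2% of all genes were higher in G1 without overlap and 24.3% lower.

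With all libraries, 42 of 44 members were above 0, the median was 0.24 against -0.02 over all genes, and the limma test called 0 members, against 3.8% of all genes, with 0 members at an unadjusted p under 0.05 (16.8% of all genes). Without replicate 1, 42 of 44 were below 0, the median was -0.16, and 1 member, GAR1, was called (log2 change -0.44, adjusted p = 0.036, limma), against 10.4% of all genes. Both G1 libraries were below replicate 2 alone at 37 members, where 47.8% of all genes were. The G1 mean was 0.887 times replicate 2 in the median member, from 0.672 times for NSR1 to 1.02 times for UTP7, a processome protein.

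The arrest responses of the strains were then compared directly by the interaction term. In RNA the mutant's log2 change minus that of WT was above 0 at 40 of 44 members, with a median of 0.58 against 0.03 over all genes. The limma test called 0 members and 0% of all genes, with 1 member at an unadjusted p under 0.05 (4.11% of all genes), and without replicate 2 of G1 WT the median was 0.05. In Rpb3 it was below 0 at all 44, with a median of -0.51, and the limma test again called 0 members and 0% of all genes, with 1 member at an unadjusted p under 0.05 (5.37% of all genes). Without replicate 1 of asynchronous WT the Rpb3 median was -0.13, with 37 of 44 below 0. Thus no member's response was shown to differ between the strains.

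Along the genes, Rpb3 signal was nearly flat. With each gene in 3 equal parts, the first part over the last gave a median ratio over members of 0.893 to 1.06 in the 8 libraries, against 0.904 to 1.02 over all genes. Around the start, replicate 2 of the asynchronous mutant went from a median of 42.4 at 500 bp before the gene to 64 at 200 bp into it, and replicate 2 of asynchronous WT from 38.9 to 50.8. Replicate 1 of asynchronous WT went from 29.4 to 25.4, so that it alone was lower inside the genes than upstream at these positions.

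**Figure D5:**
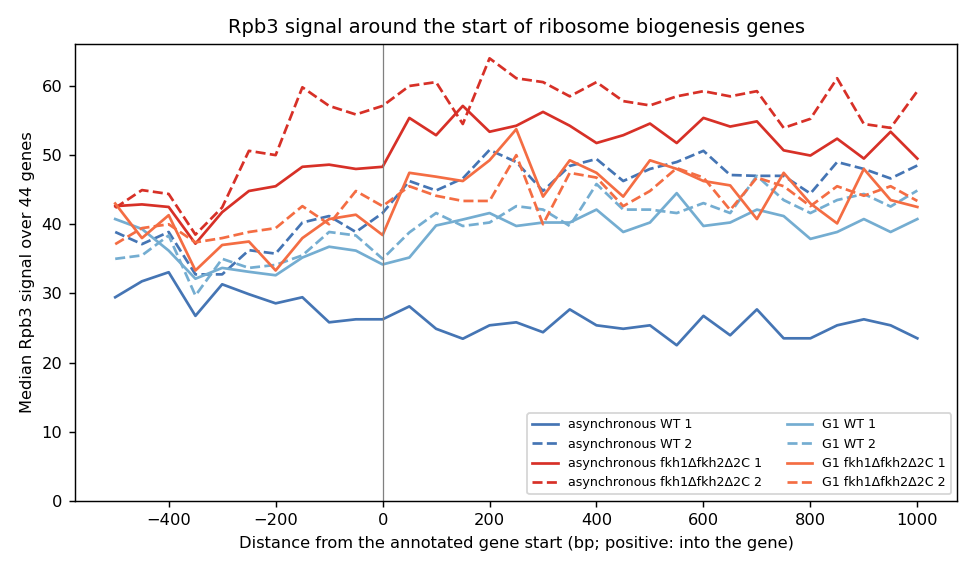
Median Rpb3 signal over the 44 ribosome biogenesis genes by distance from the annotated gene start (bp, 50 bp bins, 500 bp before to 1000 bp after), 1 line per library. Of these, 10 members are shorter than that and are left out of the median past their end, so 34 remain at 1000 bp. Replicate 1 of asynchronous WT stays below the other 7 lines within the genes.

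Rpb3 ChIP-seq has no strand, so neighbours can add to a member's signal. RPF1 and GAR1 are convergent neighbours on chromosome VIII, SSF1 and the helicase gene RRP3 are divergent, and DBP8, UTP9, NOP56 and UTP13 each lie beside another ribosome assembly gene in the same direction. SSF1 has a near-identical copy, SSF2, and its values are uncertain because reads could be split between the copies. Antisense RNA was low: its median over members was 0 to 0.0889 in the 8 libraries, and its share of both strands was highest at UTP6, at 14.3%. Replicate 2 of G1 WT, the library with the lowest sense RNA of the members, also had no antisense signal at 29 of 44, against 0 to 14 members in the other libraries, of which 2 have antisense values for 21 members only.

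Other genes of ribosome production were followed through the same comparisons. Of 103 other ribosome assembly factors, 101 had an RNA log2 change below 0 in the WT arrest, with a median of -1.01, and 98 in the mutant, with a median of -0.43. The WT median was -0.55, with 88 below 0, when replicate 2 of G1 WT was left out. In WT limma called 1 of them, UTP23 (log2 change -1.80, adjusted p = 0.025), a processome factor whose adjusted p was 0.22 without replicate 2 of G1 WT. In the mutant limma called 0, and 1 had an unadjusted p under 0.05. In asynchronous Rpb3 all 103 were above 0 for mutant minus WT, with a median of 0.53 and 0 called (74 at an unadjusted p under 0.05). Without replicate 1 of asynchronous WT the median was 0.23, with 100 of 103 above 0 and 0 called. With all libraries UTP30 was the 1 factor called in Rpb3, higher in G1 in both strains (log2 change 1.49, adjusted p = 0.0043 in WT, and 0.81, adjusted p = 0.049 in the mutant, limma), while its RNA log2 changes were -1.75 and -0.43 with adjusted p of 0.090 and 0.80.

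The 15 genes of RNA polymerase I and its initiation factors had a WT arrest median of -0.75 in RNA, with 14 of 15 below 0, and the 12 genes of RNA polymerase III one of -0.39, with 10 of 12 below 0. The 137 cytoplasmic ribosomal protein genes had one of -0.41, with 125 below 0. These 3 medians were -0.37, 0.03 and -0.31 without replicate 2 of G1 WT. In the asynchronous Rpb3 comparison the 136 ribosomal protein genes tested had a median of 1.45 for mutant minus WT, which was 0.27 without replicate 1 of asynchronous WT, where the members' median went from 0.63 to 0.22. Of 13 regulators of ribosome gene transcription, 12 were tested in RNA and 9 were below 0 in the WT arrest, with a median of -0.74, and of -0.38 without replicate 2 of G1 WT. For mutant minus WT with all libraries, 6 of 12 regulators were above 0 in RNA in G1 and 7 of 13 in asynchronous Rpb3. Without replicate 2 of G1 WT, 3 of the 12 were above 0 in RNA in G1 and 9 below, with a median of -0.26. The limma test called 0 genes of these 4 lists in RNA in the WT arrest, where 2, 1, 26 and 2 of them, in the order given, had an unadjusted p under 0.05, against 18.4% of all genes.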

How the data were processed

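The authors deposited tables of normalized signal per 50 bp bin. The deposited signal of the libraries of an assay shares one distribution, and its scaling, the aligner and the genome build were not given in the sources used here. R64 gene positions were fitted to the RNA strands, with the offset set by the least Rpb3 signal over the deleted FKH1: 5770 genes kept their position and 232 on part of chromosome XI moved by 350 bp. Because the builds may differ, no coordinates are given. Signal was averaged over each gene's bins (RNA: sense strand; 2 RNA columns had no sample), the lowest 10% of genes were left out, and log2(signal + 10% of the median) was fitted with limma 3.58.1 (R 4.3.3) over 4 groups per assay, with a variance trend and Benjamini-Hochberg adjustment over 5401 genes, at a threshold of 0.05. The limma procedure was tested on simulated data. That simulation drew noise for each gene separately, so it held no library that stood apart at many genes, and the share of changes it recovered is not given here. The sequencing depth is unknown, so no counting error is given, and 2 libraries per group limit the precision. Python 3 scripts drew the plots.

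The members and gene lists were chosen with earlier results of these data known. Values of single libraries are given for representatives of each role, though not for each of them in every group and assay. With all libraries no member passed the threshold. From other lists, some of the genes with the smallest p among those called are named. Alternatives changed the pseudocount, filter, scaling, bins, positions, groups fitted, replicate block and libraries. Counts of groups that do not overlap, and values of roles and other lists without the libraries that stood apart, were added after the data were seen. The BrdU libraries of the series were not analysed here.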

Additional observations from a re-analysis of the deposited data

How the results depend on the processing

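Under other pseudocounts, filters, centring, bins, positions and groups fitted, the members' medians moved by less than the spread of library medians. They also kept their direction, except that centring turned the RNA median for mutant minus WT in asynchronous cells from 0.08 to -0.03. Centring also moved the RNA median of all genes, from 0.07 to -0.03 in that comparison, from -0.19 to -0.06 for WT arrest and from -0.16 to -0.02 for mutant arrest, where the members' median went from -0.45 to -0.30. Of the counts of members past the threshold, 4 moved among these: RNA of arrested WT cells gave 1 member with the pseudocount at 50%, with no filter and with centring, against 0, and Rpb3 of the arrested mutant gave 21 with a fit on the groups compared only, against 0. The share of all genes called in that last fit is not given here, so the 21 cannot be read as particular to the members. MAK5 passed with no filter (adjusted p = 0.046, limma). With the median over bins only 12 members could be tested in RNA.

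Leaving out 1 library in turn gave, for RNA, medians of -0.12 to 0.13 for mutant minus WT in asynchronous cells, 0.11 to 1.10 for it in G1, -1.51 to -0.47 for WT arrest with 0 to 1 member past the threshold, -0.62 to -0.21 for mutant arrest, and 0.05 to 1.05 for the difference of the arrest responses. For Rpb3 it gave 0.22 to 1.06 with 0 to 44 members for mutant minus WT in asynchronous cells, 0.06 to 0.14 for it in G1, -0.16 to 0.64 with 0 to 41 for WT arrest, -0.37 to -0.22 with 0 to 25 for mutant arrest, and -0.92 to -0.13 with 0 to 44 for the difference of the responses. The highest Rpb3 counts came without asynchronous WT replicate 2, when replicate 1 alone stood for that group. For that fit the share of all genes called is not given here, so these counts cannot be read as particular to the members. Without asynchronous WT replicate 1, 40 of 44 members changed sign in the Rpb3 WT arrest, and without G1 WT replicate 2, 14 did in the RNA difference of the arrest responses. In the other comparisons at most 11 did without any 1 library. Among the changes of single members whose adjusted p is given, 3 changed sign. NOP1 ranged from -0.04 (without asynchronous WT replicate 1) to 1.89 for the asynchronous Rpb3 difference, GAR1 from -0.44 (the same library) to 0.82 for the Rpb3 WT arrest, and NSR1 from -0.11 (without G1 WT replicate 2) to 1.63 for the RNA difference in G1. The cause was not tested. Where a replicate was left out, the lone sample was assumed to vary like the other groups.

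With the replicate number as a block, 0 members passed in any comparison, as without it, and the RNA median for WT arrest was -1.09. Members at an unadjusted p under 0.05 went from 18 to 33 for RNA of WT arrest (20.3% of all genes with the block), from 0 to 7 for mutant arrest (11.1%), from 5 to 11 for mutant minus WT in G1 (9.33%) and from 27 to 34 for asynchronous Rpb3 (27.8%). Same-numbered libraries deviated together with a correlation above 0.1 in 2 of 6 pairs of groups for RNA (-0.0328 to 0.141) and in 5 of 6 for Rpb3 (0.0243 to 0.463). Pairing would have needed a correlation above 0.1 in every pair, and no label says what a number marks, so the numbers were not taken to pair the samples. The unknown depth limits how far low values, such as those of UTP6 and NOP12, can be told apart.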
